A study of Mus musculus with 23 samples.

Results

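Apolipoprotein genes encode the proteins that coat lipoprotein particles, and 10 of them were followed here in mouse liver among the 65535 genes of the deposited table. The members were Apoa1, Apoa2, Apoa4, Apoa5, Apob, Apoc1, Apoc2, Apoc3, Apoe and Apom, taken by gene symbol, and each symbol matched a gene in the table. Polyadenylated RNA of whole liver was counted at the 3' ends of transcripts in 23 libraries. The groups were female mice (5 libraries) and male mice (6 libraries) of the strain 129S1/SvImJ, called WT, and female and male mice (6 libraries each) of the line 129/Sv-Cyp2e1tm1Gonz/J, called KO, which lacks a working gene for Cyp2e1, a cytochrome P450 enzyme of the liver. All mice were on normal chow and shared cages. The labels put their age at 12-13 weeks in one place and at 16 weeks in another. WT and KO are separately named lines, so a difference between them cannot be told apart from a difference between the lines.

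Lipoproteins carry triglyceride and cholesterol through blood, and the liver is a main source of their protein coat. Apob is the structural scaffold of very low density lipoprotein, whereas Apoa1 and Apoa2 are the main proteins of high density lipoprotein (HDL). The smaller exchangeable apolipoproteins move between particles and steer their fate: Apoc2 activates lipoprotein lipase, Apoc3 slows lipolysis and particle uptake, Apoa5 promotes lipolysis, and Apoe is the ligand by which receptors take up remnant particles. Apoa4 is secreted on HDL and triglyceride-rich particles, Apoc1 inhibits lipoprotein uptake and lipolysis, and Apom carries the lipid mediator sphingosine 1-phosphate on HDL.

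Library totals ran from 1538889 counts (Male KO 3) to 9874733 counts (Male WT 3). The lowest count of any member in any library was 844, for Apoc2 in Male KO 3, where counting error alone is 3.44% of the value; for the other members it was smaller. The targeted gene Cyp2e1 read 323 to 543 CPM (counts scaled to the library total) in the WT libraries and 18.1 to 49.4 CPM in the KO libraries, with no overlap in either sex. Of the defining liver markers, 12 of 12 hepatocyte genes were detected in all groups, summing to 72164 to 116605 CPM per library. The intestine is the other main source of several apolipoproteins. Of its 8 markers, Sis and Alpi had no count in any group and the other 6 had counts in each, with a summed level of 39.0 to 57.1 CPM in Female WT, 38.0 to 111 in Female KO, 57.4 to 94.2 in Male WT and 50.7 to 139 in Male KO. Both of the markers with enough counts to test were positive in KO against WT males (median log2 fold change 1.09, 0 called, 1 with unadjusted p under 0.05). Their part in the members' values was not tested. Female KO 3, Male KO 2 and Male KO 3 stood apart from the rest, the first and the second by a low summed level of the 10 genes and the last by its shallow depth. Since a low level of the members picked 2 of these libraries, fits without them are given beside the full ones and support nothing alone. In bulk tissue, fewer cells of a type and less RNA per cell cannot be told apart.

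Apoa1, Apoc3, Apoa4 and Apoa5 form a cluster on chromosome 9, in this order, and Apoe, Apoc1 and Apoc2 lie together on chromosome 7. Cyp2e1 is also on chromosome 7 but is not part of that cluster. Apoa2, Apob and Apom lie on chromosomes 1, 12 and 17. The promoters of Apoa1, Apoa4 and Apoa5 are printed because these cluster neighbours did not share a sex difference in the results that follow. Each run holds 250 bases before and 50 bases after the transcription start, on the plus strand, from RefSeq on GRCm38.p6. They lie at chr9:46228380-46228679 (Apoa1), chr9:46240594-46240893 (Apoa4) and chr9:46268358-46268657 (Apoa5, the first of its 2 entries), and each spans the start of the gene and the DNA just upstream. Capitals mark the letters of the motifs searched.
Apoa1 promoter: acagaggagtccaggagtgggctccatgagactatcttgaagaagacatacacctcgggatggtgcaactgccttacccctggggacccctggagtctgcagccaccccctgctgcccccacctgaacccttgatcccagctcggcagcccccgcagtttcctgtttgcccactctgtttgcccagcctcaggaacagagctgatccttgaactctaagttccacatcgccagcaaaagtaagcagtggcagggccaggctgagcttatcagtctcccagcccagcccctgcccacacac
Apoa4 promoter: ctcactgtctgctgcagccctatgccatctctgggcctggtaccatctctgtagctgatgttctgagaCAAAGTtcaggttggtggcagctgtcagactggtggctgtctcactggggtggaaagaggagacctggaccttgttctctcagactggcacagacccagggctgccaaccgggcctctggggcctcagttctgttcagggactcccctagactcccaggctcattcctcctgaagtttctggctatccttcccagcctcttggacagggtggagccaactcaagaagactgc
Apoa5 promoter: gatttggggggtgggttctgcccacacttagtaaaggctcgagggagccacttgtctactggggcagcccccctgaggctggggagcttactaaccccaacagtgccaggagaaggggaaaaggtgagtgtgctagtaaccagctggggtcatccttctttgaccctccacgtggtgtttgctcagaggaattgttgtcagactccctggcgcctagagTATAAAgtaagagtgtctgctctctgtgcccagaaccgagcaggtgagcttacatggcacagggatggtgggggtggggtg

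The motifs searched on both strands were TATAAA (the TATA box), AGGTCA (a half-site of nuclear receptors), CAAAGT (the core of the site of HNF4, a hepatocyte factor) and TTCNNNGAA (the site of STAT factors); AGGTCA and CAAAGT can share letters where they lie side by side. The Apoa4 window held CAAAGT at base 69 of the run, the Apoa5 window held TATAAA at base 220, and the Apoa1 window held none of these letters. Among 32851 mouse promoters of the same length, 13.6% held TATAAA, 16.3% AGGTCA, 14.4% CAAAGT and 8.30% TTCNNNGAA. Promoter entries were found for 8 of the 10 members. Of the rest of these, the first Apoa2 entry held TATAAA at base 39, Apob held TATAAA at base 191, Apoc2 held AGGTCA at bases 136 and 293 and CAAAGT at base 227, and the first Apoe entry and Apom held no match.

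The 10 genes made up 9.49% ± 0.826 (SD, n = 23) of all counts of a liver library in the table. Counts outside the table's 65535 genes were not analysed here: the library totals implied by the deposited CPM exceeded those of the table by 0.579% to 1.15%, so shares and ranks are of the table. The share was 9.75%, 9.86%, 10.7%, 10.3% and 8.66% in the 5 Female WT libraries. The KO females ran from 7.37% to 10.4% with a median of 9.70%. The WT males ran from 8.87% to 9.66% (median 9.47%) and the KO males from 7.77% to 10.9% (median 9.20%). The ranges of all groups overlapped, and the Male WT libraries lay closest together. The mean of Female WT was 9.86% ± 0.780 (n = 5) and that of Female KO 9.44% ± 1.08, while the males had means of 9.39% ± 0.282 (WT) and 9.31% ± 1.04 (KO), each of 6 libraries. Mitochondrially encoded RNA took 12.1% ± 2.71 of counts in Female WT but 8.54% ± 0.486 in Male WT, and without it the shares were 11.2% and 10.8% in WT and KO females and 10.3% and 10.4% in WT and KO males.

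**Figure D1:**
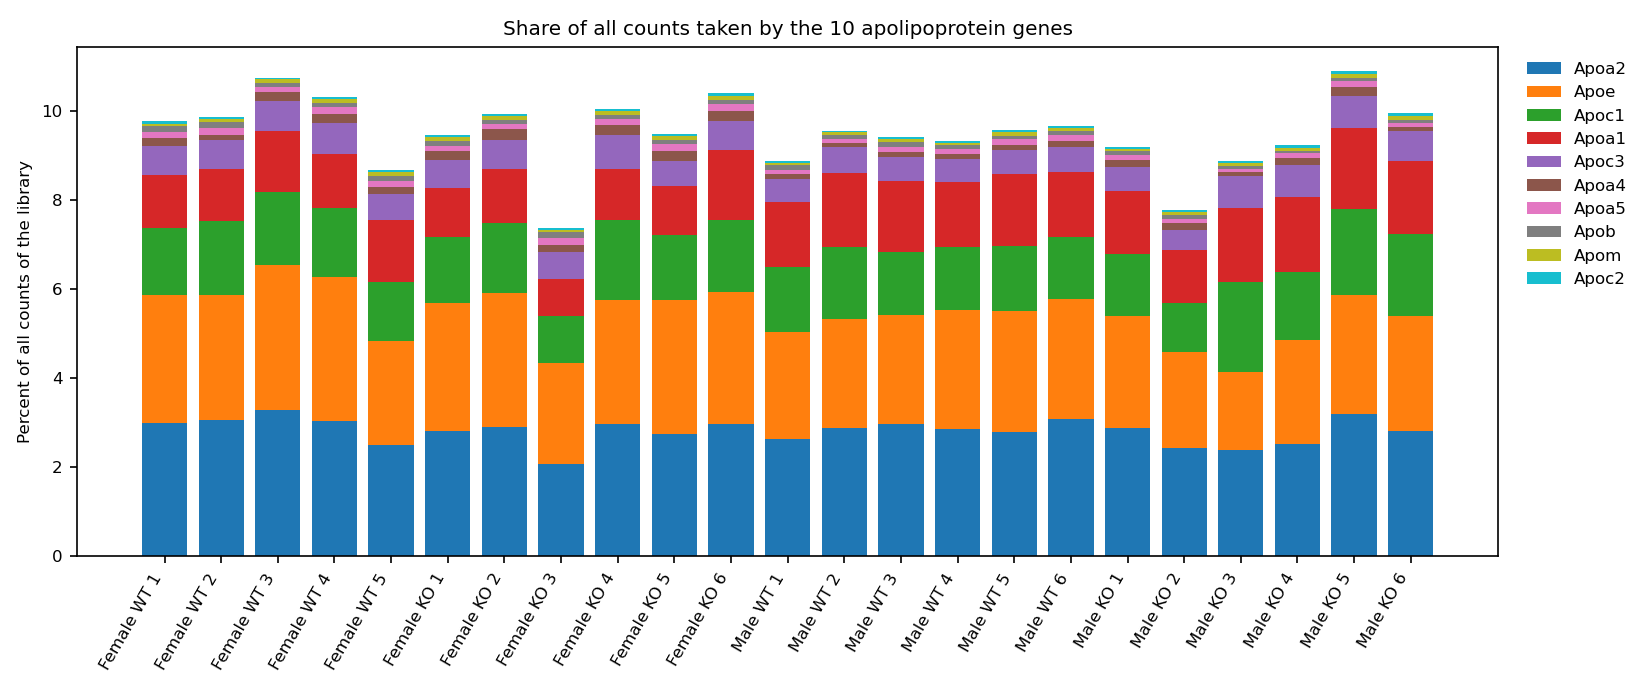
Stacked bars give the percent of all counts taken by each of the 10 apolipoprotein genes in each of the 23 libraries (y axis, percent of the library's counts). The total ran from 7.37% (Female KO 3) to 10.9% (Male KO 5), and Apoa2, Apoe, Apoc1 and Apoa1 made up most of every bar.

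The 4 most abundant genes carried most of this share. Apoa2 took 2.82% of all counts on average and Apoe 2.64%, and they ranked 3 and 4 among all genes. Apoc1 (1.53%) ranked 7 and Apoa1 (1.39%) ranked 9, and these genes together held 88.3% ± 1.30 (n = 23) of the members' counts. Apoc3 followed with 0.614% at rank 17. The remaining members were Apoa4 (0.161%, rank 70), Apoa5 (0.12%, rank 99), Apob (0.0981%, rank 112), Apom (0.0720%, rank 156) and Apoc2 (0.0466%, rank 275). Counts at 3' ends were not divided by transcript length, so these are shares of counts and not of RNA mass.

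Some neighbours in this order changed places between libraries. Apoa2 exceeded Apoe in 17 of 23 libraries, Apoc1 exceeded Apoa1 in 14 of 23 and Apoa5 exceeded Apob in 17 of 23. Every library with Apoe above Apoa2 was female: Female KO 1, 2, 3, 5 and 6, but in WT females Female WT 4 alone. Most libraries with Apoa1 above Apoc1 were male. By contrast, Apoa1 exceeded Apoc3, Apoc3 exceeded Apoa4 and Apom exceeded Apoc2 in all 23. The place of Apoc2 depends on how reads were assigned: its table entry overlaps that of Apoc2l (ENSMUSG00000109350, on the same strand), and the ratio of their counts was 0.981 ± 0.00472 (n = 23), and the reads of the pair cannot be told apart. Their sum was 0.0940% of counts, above Apom. Apoa4 and Apoa5 overlap antisense genes that held at most 78 counts in a library.

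**Figure D2:**
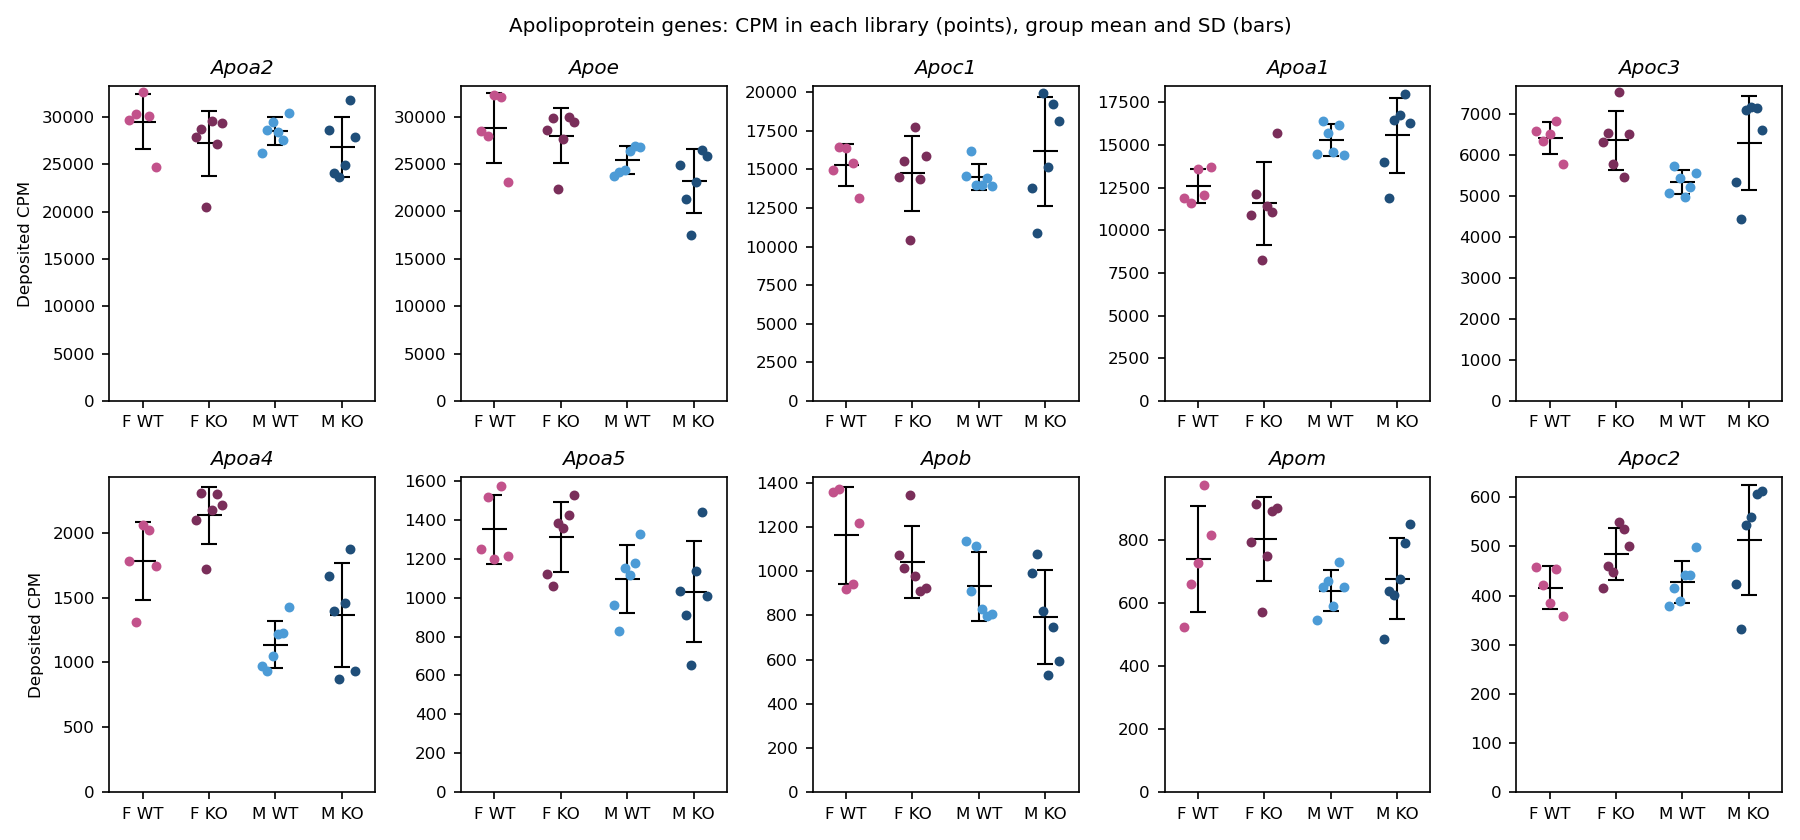
Each panel shows deposited CPM (y axis, linear from 0) of a member in the 23 libraries as points, by group, with the group mean and SD as bars. The WT sexes do not overlap for Apoa1 (males higher) and Apoc3 (males lower) and overlap for Apoa4 through Female WT 2, and Female KO 3 is the lowest Female KO point for Apoa1 (8240 CPM), Apoa2 (20519 CPM) and Apoe (22399 CPM).

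No member passed the test of KO against WT in either sex by edgeR's quasi-likelihood test over 11370 genes (call at adjusted p under 0.05, Benjamini-Hochberg). In females 0 of 10 members were called, beside 0.193% of all genes tested, and 0 of 10 had an unadjusted p under 0.05, beside 8.84%. In males 0 of 10 were called, beside 0.132% of all genes, and 2 of 10 had an unadjusted p under 0.05, beside 13.1%. The median log2 fold change of the members was 0.01 in females, where that of all genes was 0.01, and 0.16 in males, where that of all genes was 0.04. The interaction of sex and genotype had 0 called members, beside 0.0% of all genes; 0 members and 5.66% of all genes had an unadjusted p under 0.05.

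Those with an unadjusted p under 0.05 in males were Apoc2, the lipase cofactor, and Apoc3, the lipolysis inhibitor. Apoc2 ran from 380 to 499 CPM with a median of 428 in Male WT and from 331 to 613 CPM with a median of 552 in Male KO. Apoc3 ran from 4986 to 5743 CPM with a median of 5326 in Male WT and from 4440 to 7175 CPM with a median of 6860 in Male KO. The groups overlapped for both genes: Male KO 2 was the lowest of all 12 male libraries, and Male KO 1 (424 CPM for Apoc2 and 5337 CPM for Apoc3) lay within the Male WT range. On the log2 scale edgeR put the difference at 0.37 (SE 0.16, adjusted p = 0.349) for Apoc2 and 0.35 (SE 0.15, adjusted p = 0.345) for Apoc3. Without the 3 libraries that stand apart they were 0.48 (adjusted p = 0.191) and 0.41 (adjusted p = 0.193). In females the same differences were 0.27 (adjusted p = 0.706) and 0.04 (adjusted p = 0.979).

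Apoa4 had similar values in both sexes, 0.30 (95% interval -0.06 to 0.66) in females and 0.34 (0.00 to 0.69) in males, without passing the test in either. No genotype difference was called for the genes of the main HDL proteins or for Apoe, the receptor ligand, and each interval included 0. The interval was -0.42 to 0.26 in females and -0.19 to 0.45 in males for Apoa1. It was -0.35 to 0.21 and -0.26 to 0.27 for Apoa2, and -0.27 to 0.28 and -0.30 to 0.22 for Apoe. Apob differed by -0.13 (-0.44 to 0.18) in females and -0.16 (-0.46 to 0.14) in males. None of the lists of lipoprotein partners held a called gene in either genotype comparison, beside 0.193% of all genes in females and 0.132% in males. At such shares, no call in lists of this size says little about them. Of 35 tested regulators of apolipoprotein genes, 26 were negative in KO against WT males (median log2 fold change -0.16, beside 0.04 over all genes). In KO against WT females 28 of the 35 were negative (median -0.14, beside 0.01 over all genes). At an unadjusted p under 0.05, 10 were lower and 1 higher in males, beside 13.1% of all genes in either direction. In females 2 were lower and 0 higher, beside 8.84%. Macrophages also make Apoe and Apoc1. Of the 11 macrophage and Kupffer cell markers tested, 11 were positive in KO against WT males (median log2 fold change 0.65, 0 called, 6 with unadjusted p under 0.05). In KO against WT females all 11 were negative (median -0.18, 0 called, 0 with unadjusted p under 0.05). Their summed level was 135 to 211 CPM in Male WT and 160 to 472 CPM in Male KO. It was 187 to 299 CPM in Female WT and 106 to 425 CPM in Female KO. The part of these markers in the members' values was not tested.

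**Figure D3:**
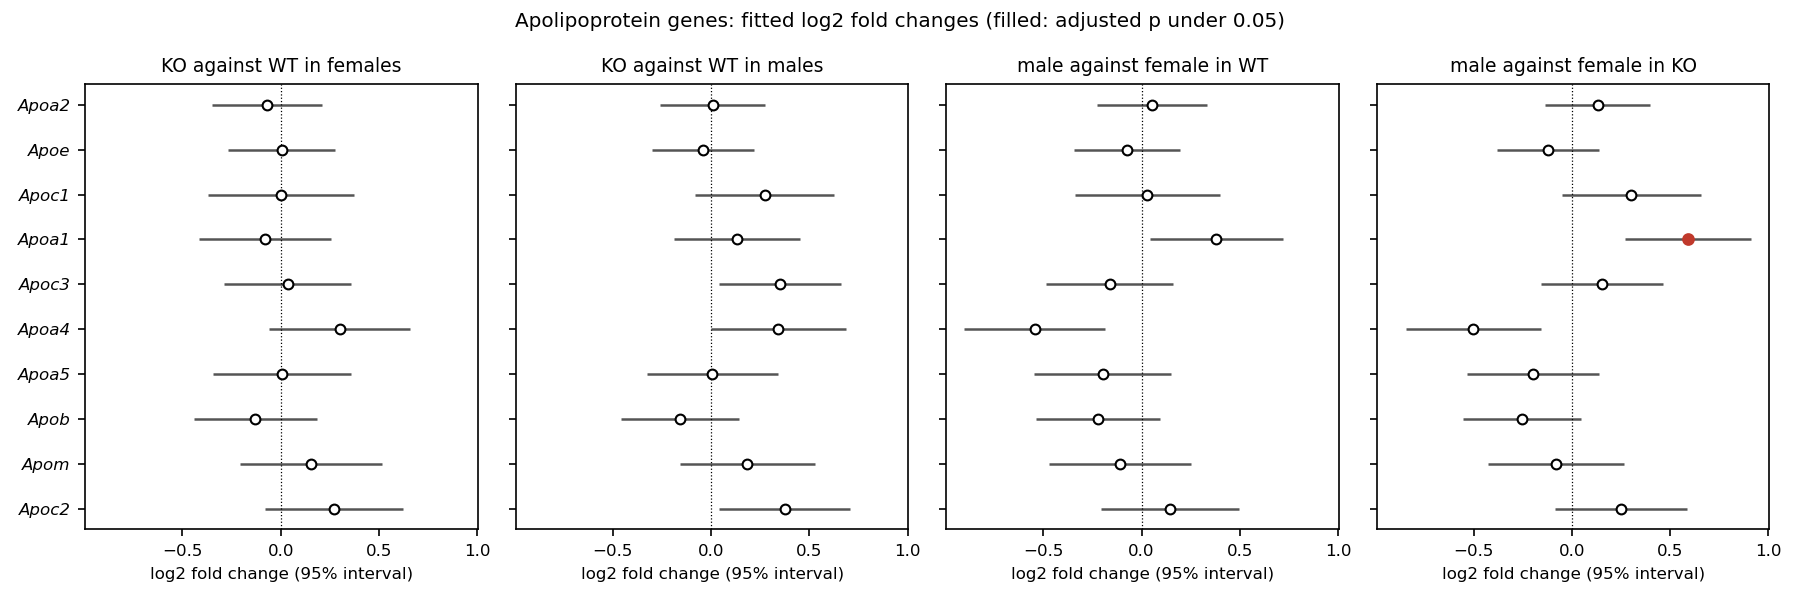
Points give the fitted log2 fold change of each of the 10 members (y axis) with its 95% interval (x axis, log2 scale) in 4 comparisons, and the filled point marks adjusted p under 0.05. Apoa1 in KO mice (0.59) is the filled point, and Apoa1 and Apoa4 lie on opposite sides of 0 in both sex comparisons.

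Between the sexes, Apoa1 was higher and Apoa4 lower in males, in both genotypes, and the other 8 genes differed by at most 0.30 in size on the log2 scale. In WT mice 0 of 10 members were called, beside 5.61% of all genes. In KO mice 1 of 10 was called, Apoa1, beside 7.44% of all genes (3.67% called higher in males), a share near that of all genes. An unadjusted p under 0.05 held for Apoa1 and Apoa4 in both genotypes, 2 of 10 members each time, beside 17.2% of all genes in WT and 24.1% in KO.

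Apoa1 (ENSMUSG00000032083) activates the cholesterol-esterifying enzyme of HDL and takes up cholesterol from cells. It stood at 11870.5, 11634, 13617, 12078 and 13741 CPM in the 5 Female WT libraries and ran from 14402 to 16437 CPM with a median of 15131 in Male WT. The WT groups did not overlap, which held for 2.23% of all genes in the direction of higher in males. It ran from 8240 to 15695 CPM with a median of 11254 in Female KO and from 11896 to 17980 CPM with a median of 16392 in Male KO. The KO groups overlapped through Female KO 6 (15695) and Male KO 2 (11896). Males exceeded females by 0.38 (SE 0.17, adjusted p = 0.220, 1.30-fold) in WT and 0.59 (SE 0.16, 95% interval 0.27 to 0.91, adjusted p = 0.0190, 1.51-fold) in KO by edgeR, and their difference did not pass the test (0.21, interaction adjusted p = 0.944). The call in KO was lost without Female KO 3 and without Male KO 5 (highest adjusted p 0.0579). Without the 3 libraries that stand apart it was 0.57 (adjusted p = 0.00848).

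Apoa4 (ENSMUSG00000032080) lies a short way downstream of Apoa1 in the cluster. It stood at 1784, 1309, 2056, 2021 and 1740 CPM in Female WT and ran from 937 to 1425 CPM with a median of 1134 in Male WT. The WT groups overlapped only through Female WT 2 (1309). It ran from 1717 to 2301 CPM with a median of 2193 in Female KO and from 870 to 1875 CPM with a median of 1425 in Male KO, where Male KO 5 (1875) reached into the female range. The sex difference was -0.54 (SE 0.17, adjusted p = 0.0684, 1.46-fold lower) in WT and -0.50 (SE 0.17, adjusted p = 0.0643, 1.42-fold lower) in KO, both short of the threshold. Without the 3 libraries that stand apart they were -0.54 (adjusted p = 0.0284) and -0.43 (adjusted p = 0.146).

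A contrast of the sexes averaged over the genotypes, chosen after the values above were known, used the same edgeR fit and all 11 female against 12 male libraries. It called Apoa1 at 0.49 (SE 0.11, 95% interval 0.25 to 0.72, adjusted p = 0.00412, 1.40-fold higher) and Apoa4 at -0.52 (SE 0.12, -0.77 to -0.28, adjusted p = 0.00345, 1.44-fold lower), beside 14.8% of all genes. The calls held with each of the 23 libraries left out in turn (highest adjusted p 0.0102 for Apoa1 and 0.00890 for Apoa4). Apob was at -0.24 (adjusted p = 0.131), and none of the other 8 members was called. Averaged over the sexes, KO against WT called 0 members, beside 0.431% of all genes, with Apoc2 at 0.32 (adjusted p = 0.188) and Apoa4 at 0.32 (adjusted p = 0.200). Without the 3 libraries that stand apart, Apoc2 was at 0.40 and called (adjusted p = 0.0455) and Apoa4 at 0.43 was not (adjusted p = 0.0563).

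Apoc3, between these neighbours in the cluster, showed how the scale of the values matters. Its deposited CPM was 6580, 6340, 6529, 6847 and 5793 in Female WT and ran from 4986 to 5743 in Male WT, so that the WT groups did not overlap (5.50% of all genes did not, lower in males). On the TMM scale of the test its log2 fold change was -0.16 (adjusted p = 0.656). TMM factors ran from 0.837 (Male KO 3) to 1.11 (Female KO 3), while deposited CPM is relative to library totals. With library totals in place of TMM, the median of all genes between the sexes lay at -0.12 in WT and -0.12 in KO, against -0.02 and 0.01 with TMM. Relative to that shift Apoa1 stayed higher and Apoa4 lower in males under every scaling tried.

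The libraries also differed in the balance of counts between genes with short and with long annotated transcripts. Per library, the median log2 CPM of 644 genes under 1000 bases minus that of 2128 genes over 5000 bases was 2.19 ± 0.50 among KO males, 1.82 ± 0.22 among WT males, 1.71 ± 0.41 among KO females (each n = 6) and 1.53 ± 0.18 among WT females (n = 5). Across the 23 libraries, after subtraction of the group means, most members moved with this measure: the correlation was 0.92 for Apoc3, 0.91 for Apoc1, 0.85 for Apoa1, 0.79 for Apoc2, 0.71 for Apoa2, 0.70 for Apom and 0.52 for Apoe. It was 0.27 for Apoa5, 0.20 for Apoa4 and -0.30 for Apob, whose transcript of 13934 bases is the longest of the set. The members were left out of the measure, but Apoa2 (518 bases), Apoc1 (532), Apoc3 (709) and Apoc2 (727) are themselves under 1000 bases. Whether other short genes moved with it as closely was not tested, so the correlations are not a trait shown for apolipoproteins. In each correlation the gene and the measure come from the same libraries, with the same depth and preparation behind both, and no test was made of them.

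With this measure as a covariate, a setting chosen after seeing the data, the Apoa1 sex difference fell to 0.20 (adjusted p = 0.348) in WT and 0.27 (adjusted p = 0.202) in KO, and the Apoa4 difference was -0.60 (adjusted p = 0.0323) and -0.59 (adjusted p = 0.0434). In the average over the genotypes Apoa1 was 0.23 (adjusted p = 0.0855) and Apoa4 was -0.59 (adjusted p = 0.00257). Apoa1 thus kept its direction but not its call, while Apoa4 was called in each. Apoc3, uncalled without the covariate, was called lower in WT males at -0.36 (SE 0.09, adjusted p = 0.00899) and was at -0.20 (adjusted p = 0.245) in KO. In the average over the genotypes Apoc3 at -0.28 (adjusted p = 0.00665) and Apom at -0.33 (adjusted p = 0.0450) were also called. The members called with the covariate were 2 of 10 in WT, beside 7.07% of all genes, 1 of 10 in KO, beside 6.75%, and 3 of 10 in the average, beside 11.6%. The Apoc2 and Apoc3 differences of KO against WT males fell to 0.08 and 0.06.

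**Figure D4:**
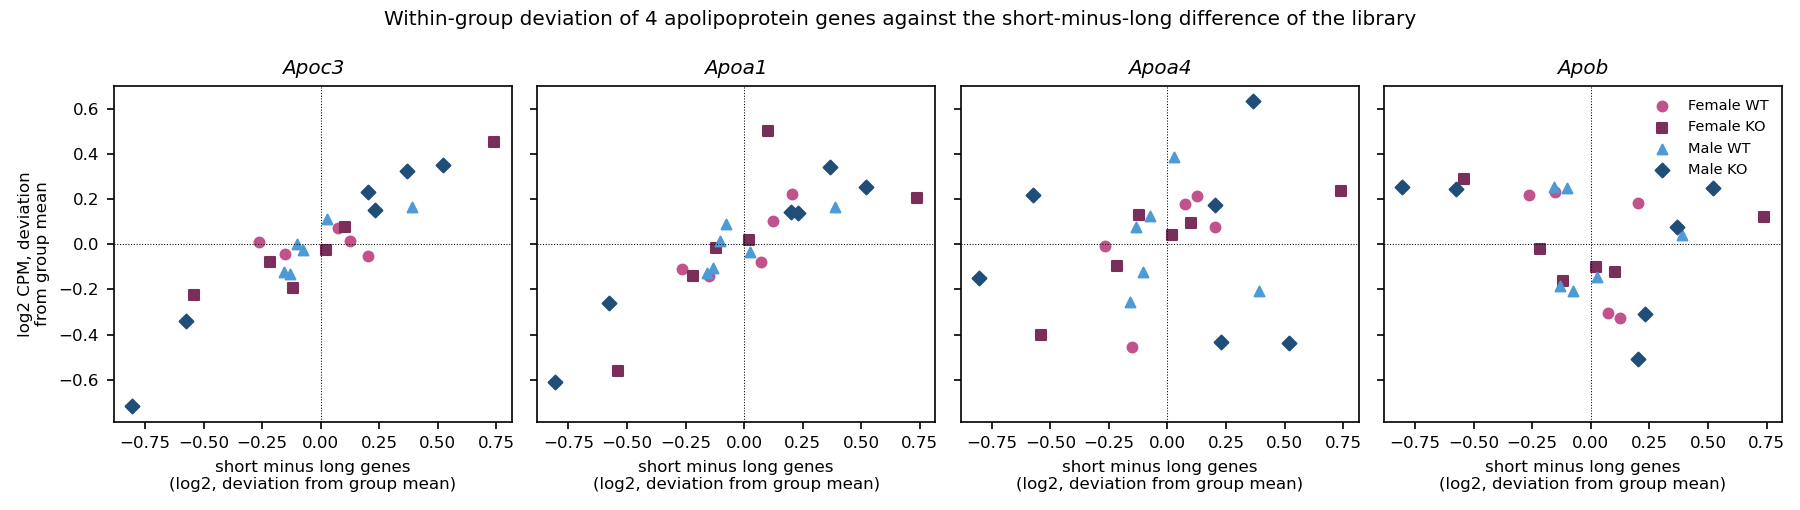
Each point is a library, with its short-minus-long difference (x axis, log2, deviation from the group mean) against the log2 CPM of a member (y axis, deviation from the group mean); symbols mark the groups. Apoc3 (correlation 0.92) and Apoa1 (0.85) rise along the x axis, and Apoa4 (0.20) and Apob (-0.30) do not.

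Outside the members, the genes whose within-group deviations were most like each member's over the 23 libraries were, by Pearson correlation, Atp5mf, Ndufa5 and Uqcr11 for Apoc3 (each 0.96), Brk1, Rpl7 and Apoc4 for Apoc1 (each 0.95), and Mtarc1, Brk1 and Hint1 for Apoa1 (0.90, 0.89 and 0.89). Apoa2 lay closest to Cyp2d10 (0.93), Apoe to Rpl14 (0.91), Apoa5 to Pank1 (0.93), Apoa4 to Dhrs1 and P2ry1 (each 0.82), Apom to Sord (0.88) and Apob to Scarna17 (0.84). Apoc2 followed its overlapping gene Apoc2l (above 0.99). Among the members, Apoc1 and Apoc3 (0.90), Apoe and Apoa2 (0.88), and Apoc2 and Apoc3 (0.87) were the most alike pairs. By rank of likeness among all tested genes, Apoc3 was number 107 for Apoc1 and Apoc1 number 78 for Apoc3. Apoa2 was number 8 for Apoe and Apoe number 11 for Apoa2. Apoc3 was number 7 for Apoc2 and Apoc2 number 185 for Apoc3. Apob had a negative correlation with each of the other 9 (-0.63 with Apoe to -0.23 with Apoc1). Both genes of each pair were read in the same libraries, so that depth and preparation are common to them.

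Among 18 tested receptors and uptake proteins, which bind the lipoproteins that the members coat, 3 fell in males in WT, beside 3.25% of all genes called lower, and 5 in KO, beside 3.77%, and none rose. Vldlr, the very low density lipoprotein receptor, stood at 11.4 to 29.3 CPM in Female WT and 2.27 to 6.91 CPM in Male WT (log2 fold change -1.84, adjusted p = 1.8e-06), and at -1.81 (adjusted p = 2.8e-06) in KO, with no overlap between the sexes in either genotype. Cd36, a fatty acid and lipoprotein scavenger receptor, fell by 1.28 (adjusted p = 0.000289) in WT and 1.05 (adjusted p = 0.0021) in KO. Lsr, the lipolysis-stimulated receptor of remnants, fell by 0.45 in WT (adjusted p = 0.0328, called in 5 of 11 fits with 1 library left out). In KO it fell by 0.62 (adjusted p = 0.0013). Sdc1, the syndecan that binds remnant particles, fell by 0.50 (adjusted p = 0.0183) in KO. The list's median was -0.20 in WT and -0.23 in KO, beside -0.02 and 0.01 over all genes.

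Of the 20 tested genes of particle assembly and secretion, 1 was called between the sexes in WT, a share near the 5.61% of all genes. In KO 3 were called, beside 7.44%. Tm6sf2, which loads lipid onto the Apob particle, fell by 1.23 in both WT (adjusted p = 3.8e-05) and KO (adjusted p = 3.1e-05). It stood at 62.3 to 78.9 CPM in Female WT and 17.4 to 36.1 CPM in Male WT, with no overlap. In KO mice Mia3, which helps load large cargo into secretory vesicles, fell by 0.79 (adjusted p = 0.000845) and Apobec1, the enzyme that edits Apob RNA, rose by 0.94 (adjusted p = 0.0366, called in 6 of 12 fits with 1 library left out). Apobec1 was low, at 1.49 to 4.24 CPM in Female KO and 1.94 to 8.51 CPM in Male KO, and these ranges overlapped. In the lipolysis list of 12 tested genes, 2 were called in WT and 3 in KO, beside 5.61% and 7.44% of all genes. Lipa, the lysosomal lipase, fell by 0.45 in WT (adjusted p = 0.0158, called in 9 of 11 fits with 1 library left out). Gpihbp1, which anchors lipoprotein lipase on capillaries, rose by 0.81 in KO (adjusted p = 0.0219, called in 9 of 12 such fits). Lmf2 fell by 0.46 in KO (adjusted p = 0.0497, called in 3 of 12). With the short-minus-long difference as a covariate neither was called (adjusted p = 0.0781 for Gpihbp1 and 0.171 for Lmf2). Of the 10 sinusoidal endothelium markers tested, 10 were positive in KO males against KO females without the covariate (median log2 fold change 0.28, 0 called, 2 with unadjusted p under 0.05). In KO against WT females 9 were negative (median -0.46, 0 called, 5 with unadjusted p under 0.05). Their summed level was 57.7 to 225 CPM in Female KO and 104 to 215 CPM in Male KO, and its part in the Gpihbp1 difference was not tested. In the HDL list of 10 tested genes, 1 was called in WT and 1 in KO, shares near the 5.61% and 7.44% of all genes. Pltp, which transfers phospholipid to HDL, fell by 1.02 in WT (adjusted p = 0.0215, called in 8 of 11 fits with 1 library left out). Lipg, an endothelial lipase, fell by 1.36 in KO (adjusted p = 0.0153). Its level was low, at 3.92 to 15.1 CPM in Female KO and 0.728 to 5.63 CPM in Male KO, and these ranges overlapped. A single count was worth 0.650 CPM in Male KO 3, the shallowest library.

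**Figure D5:**
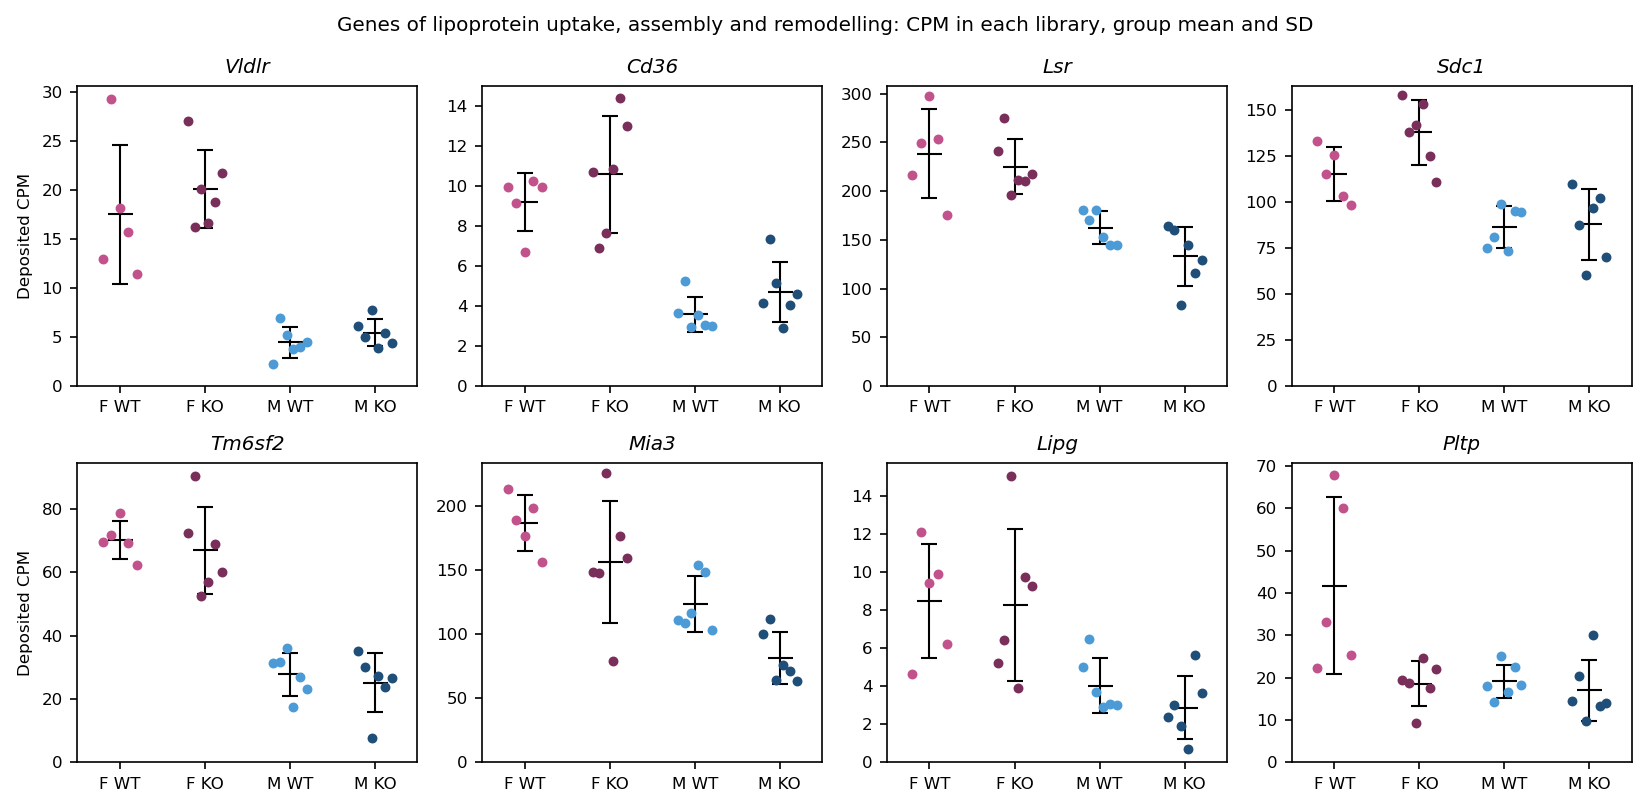
Deposited CPM (y axis, linear from 0) of 8 genes of lipoprotein uptake, assembly and remodelling in each library, with group mean and SD as bars. Male libraries lie below female ones for Vldlr and Tm6sf2 in both genotypes; Pltp spreads from 22.3 to 67.9 CPM in Female WT.

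Among 35 tested regulators of apolipoprotein genes, 2 fell in males in WT, a share near the 3.25% of all genes called lower, and 5 in KO, beside 3.77%, and none rose. Esr1, the estrogen receptor, fell by 1.49 in WT (adjusted p = 2.3e-05) and 1.51 in KO (adjusted p = 3.1e-05), and Ppargc1a, a coactivator of metabolic genes, by 0.92 (adjusted p = 0.00552) and 1.00 (adjusted p = 0.00397). In KO, Foxo1, a factor that drives Apoc3 in fasting, fell by 0.79 (adjusted p = 0.0276, called in 7 of 12 fits with 1 library left out). Srebf2, a driver of sterol synthesis, fell by 0.63 in KO (adjusted p = 0.0347, called in 5 of 12 such fits). With the short-minus-long difference as a covariate neither was called (adjusted p = 0.146 for Foxo1 and 0.116 for Srebf2). Among 14 other tested proteins that ride on lipoproteins, 1 was called in WT, a share near the 5.61% of all genes, and 0 in KO, beside 7.44%. The called gene was Saa4, which rose by 0.79 in WT males (adjusted p = 0.0437, called in 3 of 11 fits with 1 library left out). With the covariate Saa4 was not called (adjusted p = 0.0739). Of 12 hepatocyte markers tested, 2 rose and 1 fell in WT males, beside 5.61% of all genes called, and 3 rose and 2 fell in KO males, beside 7.44%. Serpina1c and Cyp2f2 rose and Alb fell in both genotypes, and Tat fell by 0.52 in KO (adjusted p = 0.0382, called in 4 of 12 fits with 1 library left out). With the covariate Tat was not called (adjusted p = 0.201).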

How the data were processed

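RNA of 23 livers was analysed. Per the labels' protocols, a service counted 3' ends of polyadenylated RNA. The authors' deposited table holds expected counts and CPM values, the latter relative to library totals; per the submitters' processing notes the tools included fastp 0.24.0, STAR 2.7.11, featureCounts and Subread 2.1.1 with build mm39. Fractional counts show that reads were divided between genes, and the settings are not given in the sources used here. The deposited expected counts were rounded to whole numbers and tested with edgeR 4.0.16 (R 4.3.3; TMM scaling, filterByExpr, 11370 genes, all 23 libraries in 1 fit, Benjamini-Hochberg over all genes, adjusted p under 0.05). DESeq2 1.42.0, limma 3.58.1 and further settings were alternatives, described in the closing section. The tests were tested on simulated data. Transcript lengths came from GENCODE release M21 on GRCm38, matched by gene ID for 89.7% of tested genes, and promoters from RefSeq on GRCm38.p6.

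The members and gene lists were chosen with earlier results of these data known. All 10 members are named. Of each other list, up to 4 called genes per contrast with the lowest adjusted p are named, and the 3 genes most alike each member; a called list gene that falls under this rule is not reported here. Depth was 1538889 to 9874733 counts per library. The labels call the libraries biological replicates. The p-values and intervals of the edgeR fit both set a difference against the spread between these samples. Counting errors cover counting alone. Reads of Apoc2 and Apoc2l cannot be told apart.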

Additional observations from a re-analysis of the deposited data

Results flagged for a closer look

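Of 44 groups of values (the 10 members and their summed share in each of the 4 groups), 5 held a sample that stood far from the others by the gap test, where chance gives about 1 in 20. In Female KO, library 3 was lowest in the share of counts taken by the members (7.37%, next 9.44%), in Apoa2 (20519 CPM, next 27170), in Apoe (22399 CPM, next 27666) and in Apoa4 (1717 CPM, next 2097). In Male WT, library 2 was highest in Apoc1 (16183 CPM, next 14553). The short-minus-long difference of these libraries was 1.21 in Female KO 3, the lowest of its group, and 2.24 in Male WT 2, the highest of its group; its part in these values was not tested.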

How the results depend on the processing

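The direction of the Apoa1 and Apoa4 sex differences was kept under all settings. The count of called members was 0 in KO against WT in females under every setting and 2 in males with limma-voom sample weights. Between the sexes in WT it was 2 with sample weights, with only the contrast's groups and with the length covariate, 1 with library totals, limma-trend and without the 3 libraries that stand apart, and 0 to 1 with 1 library left out. In KO it was 2 with DESeq2, limma-voom, library totals, limma-trend and the replicate block (Apoa1 and Apoa4), 3 with sample weights, 0 without a filter and with only the contrast's groups, and 1 with each library left out (Apoa1 in 10 of 12 fits, Apoa4 in the other two). With the covariate it was 1, Apoa4; the 2 in WT were Apoa4 and Apoc3. The Apoa1 call in KO was lost without Female KO 3 and without Male KO 5 (highest adjusted p 0.0579), without the filter (0.122) and with only the contrast's groups (0.134); the cause was not tested. The labels do not say that replicate numbers pair the samples, so the block is an alternative only. Same-number correlations ran from -0.36 to 0.30, and from 0.03 to 0.26 between the WT sexes. They were not set against pairs of other numbers, and shared handling by number was not tested. Sign changes numbered 77 over 25 member differences, and 66 over 17 with 1 library left out. The 12 in which the value before or after the change was larger in size than the SE of the edgeR fit in the report were, all uncalled, with the covariate, Apoa2 -0.14, Apom -0.066 and Apoc1 -0.066 in KO against WT males, Apoc1 -0.20 between the sexes in WT, and Apoc2 -0.11, Apoa2 -0.051, Apoc3 -0.20 and Apoc1 -0.10 in KO; with library totals, Apoa2 -0.021 and Apoc3 -0.015; with limma-trend, Apoa2 -0.017 and Apoc3 -0.029. Group shares without mitochondrial counts were 11.2%, 10.8%, 10.3% and 10.4%.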
